A study of Mus musculus with 9 samples.

Results

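Eph receptors and ephrins form a contact-dependent signalling system in which a receptor tyrosine kinase on one cell binds an ephrin tethered to the membrane of its neighbour, and both cells can signal. EphA receptors mostly bind the GPI-linked A-type ephrins and EphB receptors the transmembrane B-type ephrins. In the limb these proteins act in cell sorting, in condensation of the digit skeleton and in guidance of motor axons, and several of them, Epha3, Epha4 and Epha7 among them, are known targets of the posterior HOX proteins HOXA13 and HOXD13 in the autopod. The 10 genes described here were 5 EphA receptors (Epha3, Epha4, Epha5, Epha6 and Epha7), 2 EphB receptors (Ephb2 and Ephb3) and 3 ephrins (Efna1, Efna5 and Efnb2), of 20628 protein-coding genes with a window. Every called interval whose main summit lay in the gene body or within 100 kb on either side was counted for that gene. Overlapping intervals of the 9 lists were joined into 193812 merged sites, of which 531 belonged to the 10 genes.

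The lists came from CUT&RUN, in which an antibody directs a nuclease to cut and release the DNA around a bound protein, on distal forelimb cells of B6CBAF1 mouse embryos. There were 3 wild-type (wt) libraries with a HOXA13 antibody and 3 with a HOXD13 antibody, all labelled E12.5. Mutant embryos (line 542, homozygous for a single copy of the limb enhancer II1 inserted in the T-DOM landscape beside the HoxD cluster, the native II1 copy remaining in place) gave 2 HOXA13 libraries at E12.5 and a single HOXD13 library whose label reads E11.5. The growth protocol gives 1 time of collection for all samples. Per the study's methods, a replicate was a pool of tissue from several embryos, and the duplicate pools came from different litters. Which litters a library came from is not labelled, and wt HOXD13 replicate 3 is a re-analysis of a library deposited earlier. No window lay on the chromosome that carries the insertion, so coordinates in the mutant lists equalled mm10 there. Between 36.9 and 65.5 M read ends lay behind a list, and the lists held 22825 to 112478 intervals used here. Per the study's reporting summary, both wt replicate 3 libraries were sequenced with longer reads than the other wt and the 542 HOXA13 libraries. The part of read length in the results was not tested. Both wt replicate 3 libraries deviated in the same way in height. At the 13365 sites called in all 6 wt lists, their deviations from the antibody means correlated with each other (Pearson's r = 0.54 across sites). Deviations within an antibody cancel out at each site. Their negative correlations with replicates 1 and 2 of the other antibody (r = -0.45 to -0.14) therefore follow in part from this. Deviations of wt HOXA13 replicate 1 and wt HOXD13 replicate 2 also correlated (r = 0.46). Results that rest on wt HOXA13 replicate 3 are given with and without it.

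Sequences of the leading sites (for each gene, the site called in most lists and then ranked highest within them) are shown first, 60 bases on either side of the lead summit (the summit from the list that ranked the site highest), read from mm10 on the plus strand. Capitals mark matches to the HOX13 consensus on either strand, searched as CCNATAAA, CCNGTAAA, CTNATAAA and CTNGTAAA. Windows of this length held a match at 20.5% of all merged sites and at 23.2% of the 531 sites of the 10 genes. Of the 10 leading sites only those of Epha6 and Efna5 held a match. The first 6 sequences are the leading sites that lay outside promoters and exons. The last 4 were chosen because they held a match: the next 2 Epha3 sites by rank, a further Epha7 site, and an Efnb2 site called in all 3 wt HOXA13 lists and no wt HOXD13 list.
Epha3, downstream, chr16:63539702-63539822: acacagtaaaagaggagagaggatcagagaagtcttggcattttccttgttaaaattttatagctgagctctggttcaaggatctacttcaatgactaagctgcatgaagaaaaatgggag
Epha4, intron, chr1:77446743-77446863: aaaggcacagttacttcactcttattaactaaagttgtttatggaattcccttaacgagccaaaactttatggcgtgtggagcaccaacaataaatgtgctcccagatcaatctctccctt
Epha6, intron, chr16:60027732-60027852: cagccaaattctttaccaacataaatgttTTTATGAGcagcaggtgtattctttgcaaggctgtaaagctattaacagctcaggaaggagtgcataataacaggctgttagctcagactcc
Ephb2, intron, chr4:136761793-136761913: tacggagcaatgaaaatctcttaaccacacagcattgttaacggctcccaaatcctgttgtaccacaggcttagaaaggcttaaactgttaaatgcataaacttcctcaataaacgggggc
Efna1, upstream, chr3:89291195-89291315: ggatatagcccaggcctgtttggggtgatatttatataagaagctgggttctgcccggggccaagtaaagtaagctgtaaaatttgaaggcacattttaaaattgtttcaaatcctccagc
Efna5, upstream, chr17:62882746-62882866: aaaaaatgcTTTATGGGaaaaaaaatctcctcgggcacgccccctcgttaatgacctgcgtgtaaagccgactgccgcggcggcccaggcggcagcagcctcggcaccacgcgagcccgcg
Epha3, intron, chr16:63556602-63556722: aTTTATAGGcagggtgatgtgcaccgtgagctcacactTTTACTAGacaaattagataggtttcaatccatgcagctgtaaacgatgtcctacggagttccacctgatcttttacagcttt
Epha3, intron, chr16:63671646-63671766: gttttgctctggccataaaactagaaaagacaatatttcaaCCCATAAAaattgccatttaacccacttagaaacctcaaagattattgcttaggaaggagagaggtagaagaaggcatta
Epha7, upstream, chr4:28789662-28789782: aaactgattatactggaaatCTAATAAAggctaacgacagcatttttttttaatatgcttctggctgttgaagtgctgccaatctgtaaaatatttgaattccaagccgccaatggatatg
Efnb2, upstream, chr8:8751539-8751659: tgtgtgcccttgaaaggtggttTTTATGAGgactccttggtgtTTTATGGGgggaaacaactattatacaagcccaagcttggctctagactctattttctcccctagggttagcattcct

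The 10 windows together covered 4.47 Mb, or 0.171% of the genome used, and held 0.251% to 0.322% of the intervals of each wt library. Intervals were therefore denser around these genes than over the genome, by 1.63 ± 0.222 times with HOXA13 (SD, n = 3) and 1.61 ± 0.122 times with HOXD13 (SD, n = 3). A window around a gene is itself richer than intergenic sequence, so the closer reference is the other genes: over all protein-coding windows the median was 28.7 intervals per Mb (mean of the 6 wt libraries), against a median of 43.1 over the 10 members and 33.9 over the other 12 Eph and ephrin genes. Averaged over the 6 wt libraries, Efna1 (61.3 intervals per Mb), Ephb3 (57.2), Efna5 (54.5), Epha3 (50.9) and Efnb2 (47.9) were the densest. The top of this order depended on the antibody. With HOXA13 it was Ephb3 (70.2), Efna5 (67.1), Epha3 (61.5) and Efna1 (54.1), and with HOXD13 Efna1 (68.4) came before Ephb3 (44.2), Efnb2 (43.8) and Efna5 (41.9). Efna1 exceeded Ephb3 in 2 of the 6 libraries. Over both antibodies Epha4 (38.3), Ephb2 (35.2) and Epha7 (26.8) lay nearer the median, and Epha6 (14.6) and Epha5 (8.29) lay below it. Among neighbours in the averaged order, only Epha7 exceeded the next gene, Epha6, in all 6 wt libraries, and every other neighbouring pair changed order in at least 1 library. The Efna1 window holds 17 other coding genes, Efna3 and Efna4 among them, the Ephb2 window 8 and the Epha6 window 2. Those of Ephb3 and Efnb2 hold 1 each, and those of Epha3, Epha4, Epha5, Epha7 and Efna5 none. The nearest coding start site was a member's at 386 of the 531 merged sites (72.7%). It was so at only 33 of 93 Epha6 sites, 20 of 53 Ephb2 sites and 6 of 45 Efna1 sites.

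**Figure D1:**
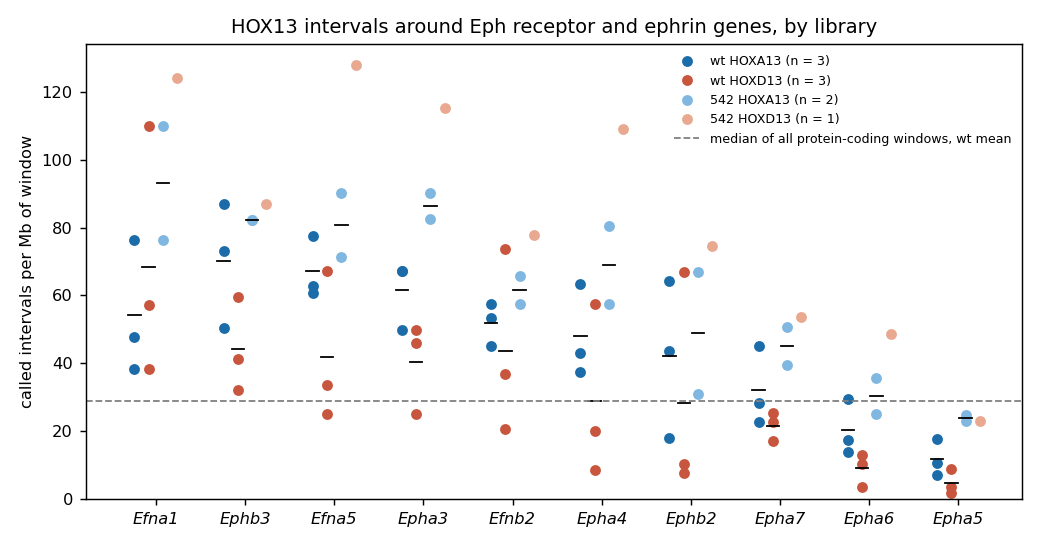
Called intervals per Mb of window (vertical axis) for each of the 10 genes, ordered by the mean over the wt libraries. Each point is 1 library, coloured by group, short lines are group means, and the dashed line is the median of all protein-coding windows (28.7 per Mb). The 542 HOXD13 library had the longest list and lies highest for most genes.

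Epha3 encodes a receptor tyrosine kinase for A-type ephrins. Its window held 35, 26 and 35 intervals in the wt HOXA13 libraries, 13, 24 and 26 in the wt HOXD13 libraries, 47 and 43 in the 542 HOXA13 libraries and 60 in the 542 HOXD13 library. Epha7, a related EphA receptor, had 10, 8 and 16 against 6, 9 and 8 in wt. Epha4, a receptor that binds ephrins of both classes, had 22, 15 and 13 against 3, 20 and 7. For all 3 of these genes the ranges of the antibodies met or overlapped. Efna5, a GPI-linked ephrin, had 37, 30 and 29 intervals against 12, 32 and 16. Ephb2, an EphB receptor, was the most uneven, with 25, 17 and 7 against 4, 26 and 3. Its lowest counts for each antibody were in replicate 3, while Epha3 reached its highest HOXD13 count there. As a share of each list, Epha3 and Ephb2 ran in opposite orders (Spearman's rho = -0.98 over the 9 lists) and Epha3 was most like Epha7 (rho = 0.88), a description of 9 lists that differ in depth and base composition. The sites around Epha3 and Epha7 were AT-rich (median GC of 37.2% and 33.5% in the 60 bp on either side of the lead summit) and those around Ephb2 were not (52.1%), and over all intervals of a wt HOXA13 library the median GC was 44.6% and 45.5% in replicates 1 and 2 and 40.5% in replicate 3. The part of base composition in these shares was not tested.

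Over all 10 genes the share of a library's intervals was 0.279% ± 0.038 with HOXA13 and 0.275% ± 0.0208 with HOXD13 (SD, n = 3 each), a log2 difference of 0.02 (two-sided exact permutation test, p = 1, adjusted p = 1 over 4 tests), with overlapping libraries. Without wt HOXA13 replicate 3 the difference was -0.09, without wt HOXD13 replicate 2 it was -0.04, and without both replicate 3 libraries it was -0.08, so no direction is given. The 2 542 HOXA13 libraries had 0.289% and 0.300%, inside the range of the wt HOXA13 libraries (log2 wt minus 542 of -0.09, exact permutation test, p = 0.5, adjusted p = 0.667). With 3 libraries against 3 or 2, the smallest p these tests can give is 0.1.

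Most of the 531 sites lay far from a start site of their gene. By place, 287 were intronic, 143 downstream, 78 upstream, 11 exonic and 12 within 1 kb of a start site of the gene itself. The median distance to the gene's own start site was 103 kb. Place and distance depend on the windows, which take in the whole gene body and a fixed length on either side. No share by place or distance expected from the windows alone was worked out. Place and distance, here and below, are therefore not set against a background and show no preference. Of the 531 sites 252 (47.5%) were called in 1 list, where 50% of all merged sites were, and 37 (6.97%) in all 9, where 6.4% were. These shares are near the background. Of the 37 sites in all 9 lists, 19 were intronic, 9 downstream, 5 upstream and 4 promoter sites. Their summits were spread over a median of 253 bp between lists. Epha3 and Efna5 had 9 such sites each, Epha7 and Efnb2 4 each, Epha6 and Ephb3 3 each, Ephb2 and Efna1 2 each, Epha4 1 and Epha5 none.

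**Figure D2:**
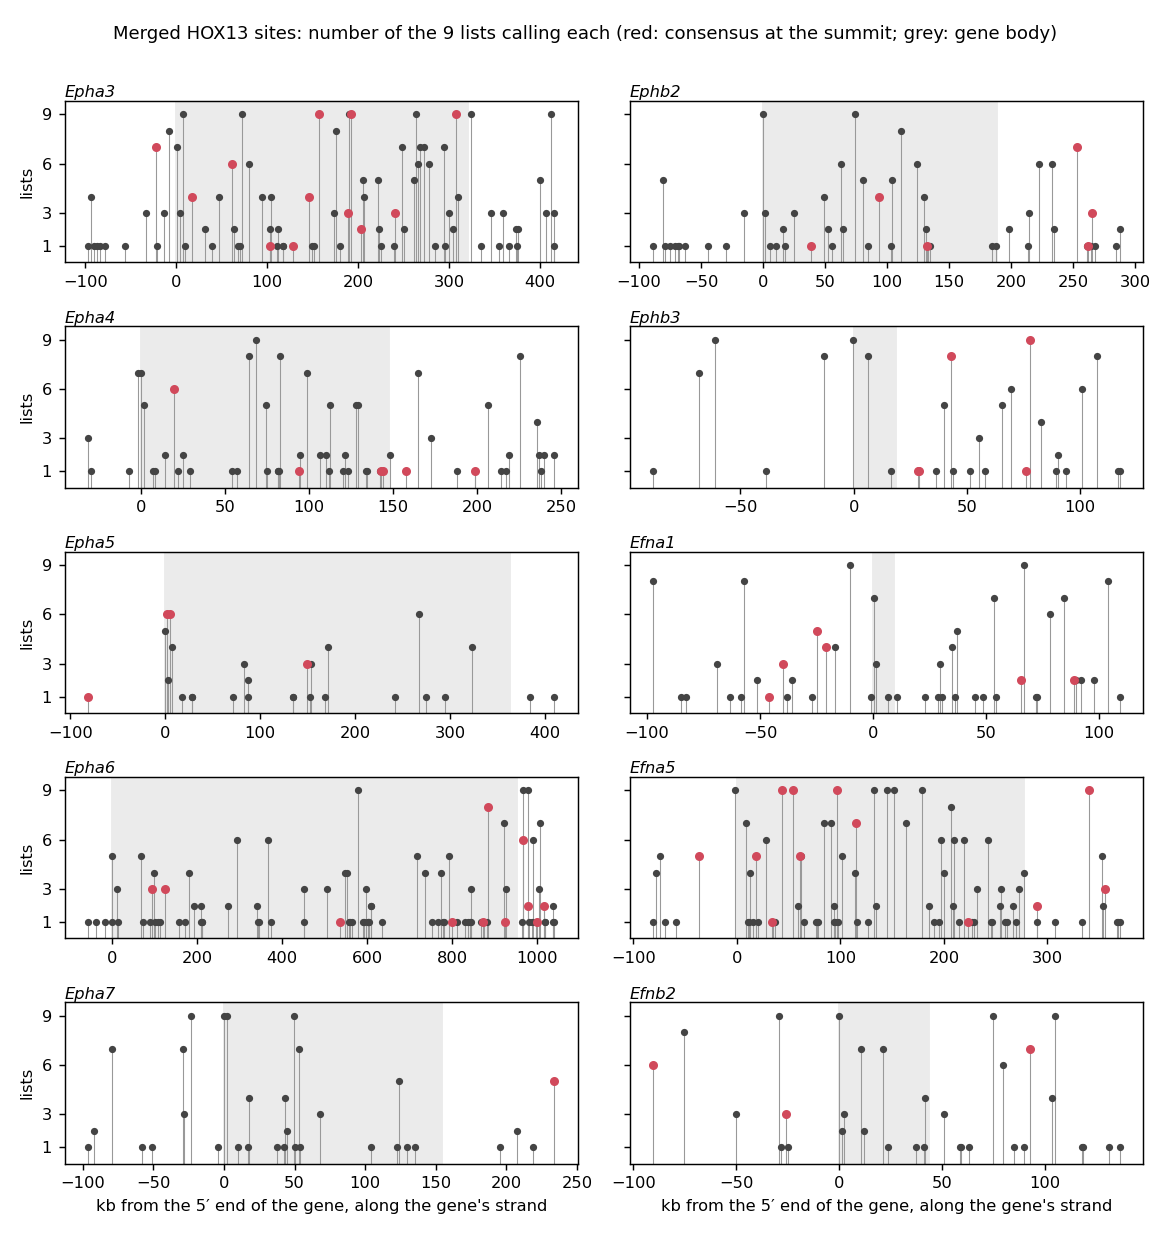
Merged sites of each gene by distance in kb from the gene's 5′ end along its strand (horizontal axis) and by the number of the 9 lists that called them (vertical axis). Grey marks the gene body and red points hold the consensus in 50 bp at the lead summit; the sites in all 9 lists around Epha3 and Efna5 are mostly intronic, and most points sit at 1 list.

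In wt libraries 330 of the sites were called. Both antibodies called 153 of these (46.4%, against 43.7% of all merged sites called in wt), HOXA13 alone 117 (35.5%, against 37.1%) and HOXD13 alone 60 (18.2%, against 19.3%), so the split between antibodies was close to that of the genome. In all 6 wt lists 38 were called (11.52%, against 10.5%). A further 201 sites (37.9%, against 34.3% of all merged sites) were called in mutant lists only. Of these, 116 were called in the 542 HOXD13 library alone, which had the longest list. The share of all merged sites called in that library alone was not measured, so the 116 are not set against a background. Sites called in all 3 wt HOXA13 lists and in no wt HOXD13 list numbered 10 (3.03%, against 1.37%), 5 of them around Epha6, 3 around Efna5 and 1 each around Ephb3 and Efnb2. The reverse, all 3 wt HOXD13 lists and no wt HOXA13 list, was found at 0 sites (0.0291% of all merged sites called in wt). HOXD13 lists were shorter on average, and a site missed in a list is below its threshold, not shown to be unbound.

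The highest ranked of these 10 sites lay 90.4 kb upstream of Efnb2, a transmembrane ephrin, and 61.1 kb from the nearest coding start site, that of Arglu1 (chr8:8751109-8752021). Its fold enrichment, the pileup of read ends at the summit over local background, was 9.17, 6.01 and 4.08 in the 3 wt HOXA13 libraries, no call, no call and no call in the 3 wt HOXD13 libraries, 11.4 and 9.16 in the 2 542 HOXA13 libraries and 9.24 in the 542 HOXD13 library. It held 2 consensus matches within 60 bp of the summit (sequence above), and the summits of the 6 lists that called it lay within 55 bp. The next 2 by rank were around Epha6: 1 lay past its 3′ end and 1591 bp from the start site of Arl6 (chr16:59637046-59638840) and 1 in an intron (chr16:60312128-60313242). Both were also called in all 3 mutant lists, the first at 8.57, 5.14 and 8.29-fold and the second at 8.3, 5.38 and 5.75-fold. All 3 sites were thus called with the HOXD13 antibody in the 542 library, so the lack of a call held for the wt HOXD13 lists.

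Promoters differed between members. A site called in all 6 wt lists lay within 1 kb of a start site of Epha7, Ephb2, Ephb3 and Efnb2, that is of 4 of 10 members (40%), of 2 of the other 12 family genes (Ephb1 and Ephb4) and of 19.6% of all protein-coding genes. All 4 were also called in the mutant lists. At the Epha7 promoter (chr4:28812590-28813599, summit 49 bp from the start site) the fold enrichment was 7.24, 6.65 and 3.29 in the 3 wt HOXA13 libraries, 5.45, 9.98 and 4.12 in the 3 wt HOXD13 libraries, 7.76 and 7.04 in the 2 542 HOXA13 libraries and 7.19 in the 542 HOXD13 library. At the Ephb3 promoter (chr16:21203407-21205183, 261 bp) it was 9.96, 6.73 and 5.3 in the 3 wt HOXA13 libraries, 6.42, 8.38 and 5.04 in the 3 wt HOXD13 libraries, 10.6 and 10.5 in the 2 542 HOXA13 libraries and 10.3 in the 542 HOXD13 library. At the Efnb2 promoter (chr8:8660645-8662160, 93 bp) it was 7.51, 6.12 and 6.11 in the 3 wt HOXA13 libraries, 7.42, 8.31 and 5.86 in the 3 wt HOXD13 libraries, 8.89 and 7.79 in the 2 542 HOXA13 libraries and 6.83 in the 542 HOXD13 library. The HOXA13 and HOXD13 libraries overlapped at all 3 of these promoters. The Ephb2 promoter (chr4:136835684-136836785, 307 bp) lay between 4.14 and 5.5-fold in wt. It was lower than these 3 in wt replicates 1 and 2 of both antibodies. In replicate 3 (5.23 with HOXA13 and 5.46 with HOXD13) it was instead above the Epha7 promoter. Its summits in the 9 lists fell within 25 bp of each other.

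The remaining promoters were called less regularly. Epha3 (chr16:63863099-63864305), Epha4 (chr1:77514561-77516046) and Efna1 (chr3:89280050-89281454) each had a start-site site in 7 lists, and each lacked a call in 1 wt library of either antibody (replicate 3 of both for Epha3 and Efna1, HOXA13 replicate 2 and HOXD13 replicate 1 for Epha4). Epha5, an EphA receptor best known from the nervous system, had 2 start-site sites in 6 and 5 lists, the first at 976 bp, just inside the 1 kb limit, with a consensus match. Epha6 had 1 site in 1 list, at 2.7-fold. Efna5 had none within 1 kb, but its leading site lay just outside, 1489 bp upstream. None of the 4 promoter sites of all 9 lists held the consensus, and their median GC was 61.6%, against 42.1% for the other 33 sites of all 9 lists.

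Away from the promoters, Epha3 carried the tallest HOXA13 site of the named sites in wt. Its leading site lay 3′ of the gene, 324 kb from the start site (chr16:63538928-63541291), at 15.7, 14.6 and 4.9 in the 3 wt HOXA13 libraries, 5.54, 6.89 and 4.12 in the 3 wt HOXD13 libraries, 10.7 and 11.2 in the 2 542 HOXA13 libraries and 8.34 in the 542 HOXD13 library. HOXA13 replicates 1 and 2 stood above all other libraries and HOXA13 replicate 3 was below wt HOXD13 replicates 1 and 2. The next site was intronic (chr16:63556218-63557269), held 2 consensus matches, and reached 13.8, 12.1 and 3.86 in the 3 wt HOXA13 libraries, 4.61, 9.17 and 2.98 in the 3 wt HOXD13 libraries, 8.53 and 8.77 in the 2 542 HOXA13 libraries and 5.98 in the 542 HOXD13 library. Another, also intronic (chr16:63671280-63672178), held 1 match, and reached 10.3, 9.38 and 4.45 in the 3 wt HOXA13 libraries, 4.61, 7.12 and 3.44 in the 3 wt HOXD13 libraries, 7.5 and 6.21 in the 2 542 HOXA13 libraries and 4.61 in the 542 HOXD13 library. In all 3 the library order was alike, with both replicate 3 libraries at the low end.

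Epha4 had its only site of all 9 lists in an intron 68.3 kb from the start site (chr1:77446055-77447405), at 8.98, 8.55 and 2.61 in the 3 wt HOXA13 libraries, 3.46, 6.01 and 3.12 in the 3 wt HOXD13 libraries, 5.94 and 6.63 in the 2 542 HOXA13 libraries and 5.48 in the 542 HOXD13 library. The next sites, 225 kb from the start site and downstream (chr1:77289091-77290379) and in an intron at 83.0 kb (chr1:77431336-77432554), were called in 8 lists, missing only from wt HOXD13 replicate 1, the shortest list. Epha7 had a site 23.4 kb upstream of its start (chr4:28789177-28790502) at 10.3, 9.97 and 4.33 in the 3 wt HOXA13 libraries, 5.17, 7.37 and 3.08 in the 3 wt HOXD13 libraries, 8.47 and 10.6 in the 2 542 HOXA13 libraries and 4.25 in the 542 HOXD13 library. A further Epha7 site, in an intron 1763 bp from the start (chr4:28814884-28815629), was low, between 2.23 and 4.22-fold in all 9 lists. The leading Epha5 site was exonic (chr5:84149923-84151184) and was called in 6 lists, between 2.5 and 6.08-fold, with no call in wt HOXD13 replicate 1, 542 HOXA13 replicate 1 or the 542 HOXD13 library. The leading Epha6 site, intronic and 577 kb from the start (chr16:60027234-60028366), was 9.12, 3.98 and 5.26 in the 3 wt HOXA13 libraries, 4.63, 4.32 and 3.87 in the 3 wt HOXD13 libraries, 11.52 and 13.9 in the 2 542 HOXA13 libraries and 9.29 in the 542 HOXD13 library. The nearest coding start site to it was that of Arl6, 388 kb away. All 3 mutant libraries exceeded the highest wt value at this Epha6 site. They did so at other named sites too, among them the leading Efna1 site and the Ephb2 and Ephb3 promoters. These heights were not centred. Without centring, the median log2 difference over all shared sites (wt minus 542, HOXA13) was -0.40.

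Ephb2 led with an intronic site 74.0 kb from the start (chr4:136760921-136762383), at 11.2, 8.29 and 7.24 in the 3 wt HOXA13 libraries, 5.78, 10.1 and 6.45 in the 3 wt HOXD13 libraries, 13.9 and 10.7 in the 2 542 HOXA13 libraries and 10.4 in the 542 HOXD13 library, with the summits of 9 lists within 38 bp. Among the ephrins, Efna1 had the highest ranked site of all members, 10.1 kb upstream of its start (chr3:89290800-89292192), with a median within-list percentile of 99.2 by p-value. It stood at 13.7, 11.8 and 4.88 in the 3 wt HOXA13 libraries, 7.88, 10.2 and 4.18 in the 3 wt HOXD13 libraries, 14.5 and 14.2 in the 2 542 HOXA13 libraries and 15.3 in the 542 HOXD13 library, behind which lay 506 read ends in wt HOXA13 replicate 1 (95% Poisson interval 463 to 552) and 26 in wt HOXD13 replicate 3 (17 to 38.1), counting error only. Read ends of the same pair and any kept duplicates are not independent, so these intervals may be too narrow. The leading Efna5 site (chr17:62882455-62883616), at 12.3, 9.83 and 7.46 in the 3 wt HOXA13 libraries, 8.46, 10.1 and 7.92 in the 3 wt HOXD13 libraries, 12 and 10.5 in the 2 542 HOXA13 libraries and 10.2 in the 542 HOXD13 library, was the only leading site above 7-fold in all 9 lists.

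**Figure D3:**
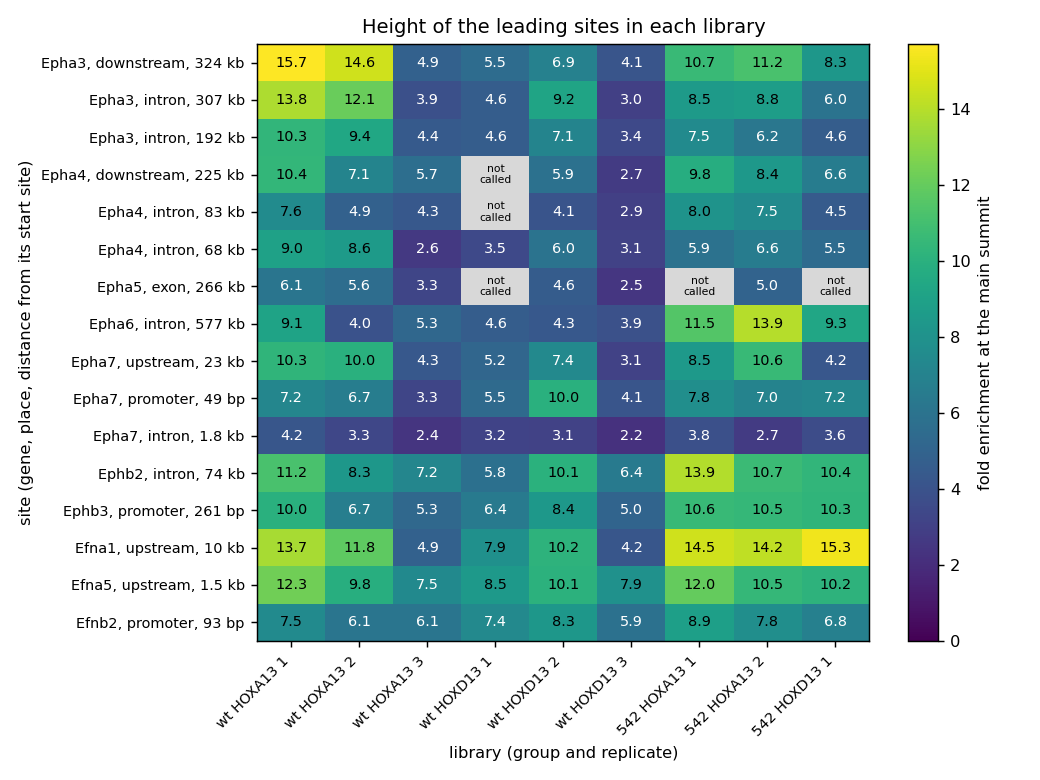
Fold enrichment at the main summit (colour and printed value) of the leading site of each gene and the next 2 of Epha3, Epha4 and Epha7 (rows, with place and distance from the gene's own start site) in each library (columns). Grey cells were not called; the wt replicate 3 columns hold the lowest values of most rows, and the Efna5 row is above 7 in all 9 libraries.

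Site heights were then compared over all sites called in every library of a comparison, with limma on log2 fold enrichment after centring each library on its median. Between wt HOXA13 and wt HOXD13, none of the 38 member sites tested passed an adjusted p of 0.05, where 1 of 13365 sites did (0.00748%). At an unadjusted p under 0.05 there were 3 member sites and 1809 in all. The median log2 difference (HOXA13 minus HOXD13) was 0.01 over the member sites and -0.01 over all sites. Of the member sites 19 were above 0 and 19 below, and of all sites 6495 were above and 6870 below. Of the 9 Epha3 sites 7 were above 0 (median 0.20), and of the 5 Efnb2 sites 1 was (median -0.02). Both medians moved without wt HOXA13 replicate 3, to 0.49 for Epha3 (7 of 9 above 0) and -0.33 for Efnb2 (0 of 5 above 0). In that fit 2 member sites passed: the leading Epha3 site, higher with HOXA13 by 0.95 ± 0.22 (log2, SE; limma adjusted p = 0.0278), and a site in the Efna1 window 33 bp from the start site of Mtx1, lower with HOXA13 (chr3:89213616-89215193, -0.96 ± 0.24, limma adjusted p = 0.0391). These were named after their values were seen. There, 1.11% of all sites were called higher with HOXA13 and 2.03% lower.

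Between wt and 542 HOXA13 libraries, 0 of 80 member sites passed with all 5 libraries, where 1 of 27085 sites did (0.00369%), and 9 member sites and 3611 sites in all had an unadjusted limma p under 0.05. The median log2 difference (wt minus 542) was 0.10 over member sites and 0.06 over all sites. Above 0 were 45 of the 80 member sites and 15453 of the 27085 sites in all. By gene it was 0.42 for 16 Epha3 sites (12 above 0), 0.15 for 7 Epha7 sites (all above 0) and -0.26 for 8 Ephb3 sites (all below 0). Without wt HOXA13 replicate 3 it was 0.34 for 22 Epha3 sites (15 above 0), 0.18 for 7 Epha7 sites (4 above 0) and -0.15 for 8 Ephb3 sites (7 below 0), so the uniform sign at Epha7 and Ephb3 was lost without that library. In that fit 99 member sites were tested and 13 passed, 11 higher in wt and 2 higher in 542, where 6.41% of all sites were higher in wt and 3.78% lower. Of the 11, 8 were Epha3 sites, among them its 3 highest ranked sites, at log2 differences of 0.74 ± 0.18, 0.85 ± 0.18 and 0.80 ± 0.19 (SE; limma adjusted p = 0.00675, 0.00208 and 0.00533). The others were 1 site each at Epha4 (its leading site, 0.75 ± 0.20, limma adjusted p = 0.0131), Epha6 and Epha7. The 2 that were higher in 542 were the leading Epha6 site (-0.81 ± 0.21, limma adjusted p = 0.0108) and a site 12.9 kb upstream of Ephb3 (chr16:21191374-21192927, -0.81 ± 0.21, limma adjusted p = 0.0115). The calls thus turned on 1 library, whose part in them beyond that was not tested. Over all intervals the median GC was 40.5% in both 542 HOXA13 libraries and in wt HOXA13 replicate 3. In wt HOXA13 replicates 1 and 2 it was 44.6% and 45.5%. The part of base composition in these calls was not tested. The same wt HOXA13 libraries enter both comparisons.

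**Figure D4:**
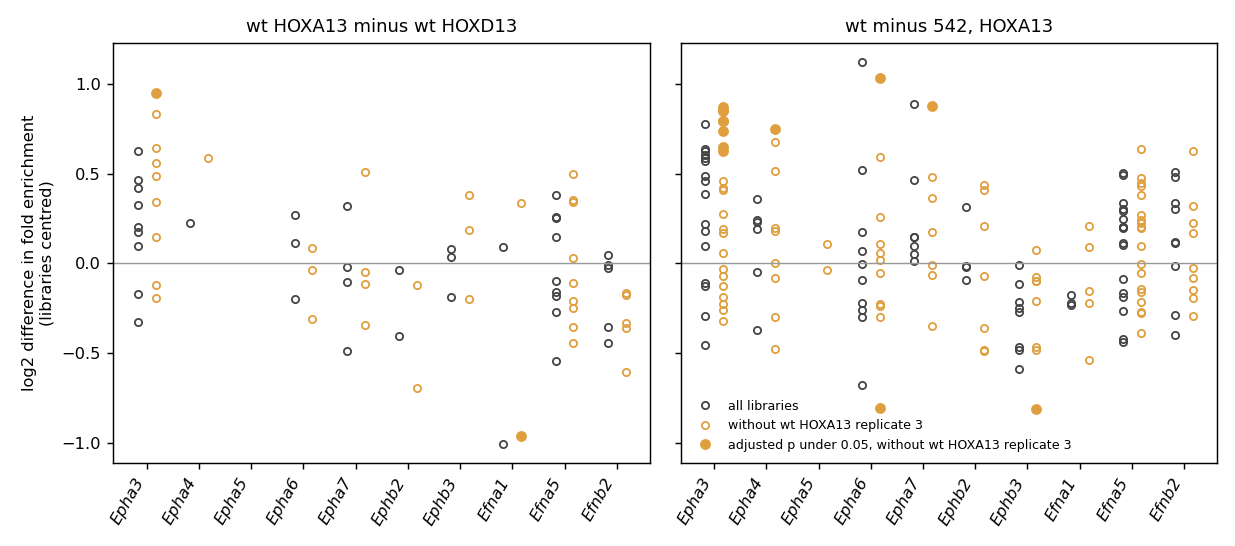
Log2 difference in fold enrichment, libraries centred on their medians, of the member sites called in every library of a comparison (left, wt HOXA13 minus wt HOXD13; right, wt minus 542 with the HOXA13 antibody), by gene. Dark circles use all libraries and orange circles leave out wt HOXA13 replicate 3; filled orange circles passed an adjusted p of 0.05, 2 on the left and 13 on the right, and no dark circle is filled.

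The share of member intervals near a start site was lower in the wt HOXA13 than in the wt HOXD13 libraries, but the difference did not pass its test. Of the member intervals, 13.9%, 14.2% and 13.0% lay within 1 kb of any annotated start site in the wt HOXA13 libraries, and 26.9%, 21.6% and 15.0% in the wt HOXD13 libraries. The groups did not overlap at this window, with a difference of -7.45 percentage points, which gave the smallest p that 3 against 3 allows (two-sided exact permutation test, p = 0.1, adjusted p = 0.2). They overlapped with windows of 50 kb or 20 kb on either side and with every summit counted (permutation p = 0.3, 0.2 and 0.3). The difference was -19.5 points at a fold enrichment of at least 5 and -4.60 without wt HOXD13 replicate 1. Over all intervals of the same libraries the shares were 18.3% ± 2.11 and 23.6% ± 3.87 (SD, n = 3). Among merged sites, 45 of the 531 (8.47%) lay within 1 kb of any start site, against 11.2% of all merged sites.

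The HOX13 consensus was found in the 50 bp at the summit in 17.3%, 20.9% and 10.7% of member intervals in the wt HOXA13 libraries and 4.48%, 13.0% and 9% in the wt HOXD13 libraries. In windows 1 kb to either side it was found in 1.68% to 4.52%. The summit share exceeded the flank share in 6 of 6 libraries, by a mean log2 ratio of 1.94 ± 1.02 (SD, n = 6), or 3.83-fold (exact permutation of the signs over libraries, two-sided, p = 0.0312, adjusted p = 0.125 over 4 tests; 6 libraries allow no smaller p), so the difference did not pass after adjustment. The test treats the 6 libraries as independent, though they share many sites (153 called with both antibodies) and so in part the same sequence. It does not measure the spread over sites. With the core alone (ATAAA or GTAAA) the log2 ratio was 0.78. Over all intervals the summit share was 7.44% to 12.45% in the wt libraries. In wt HOXD13 replicate 1 the member share rested on 3 of 67 intervals, against 2.99% in its flanks and 11.6% over all its intervals. It was the only wt library whose member share lay below that of all its intervals. Of the 531 merged sites 66 (12.4%) held the consensus at the lead summit, against 10.3% of all merged sites. Of the 37 sites in all 9 lists 8 did (21.6%, against 15.4% of all merged sites in 9 lists): 3 around Epha3, 4 around Efna5 and 1 downstream of Ephb3. Among the sites called in wt, the consensus was held by 24 of the 153 sites of both antibodies (15.7%, against 12.9% of all merged sites so called), 9 of the 117 of HOXA13 alone (7.69%, against 9.67%) and 2 of the 60 of HOXD13 alone (3.33%, against 3.3%). The order of the 3 classes was that of all merged sites.

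**Figure D5:**
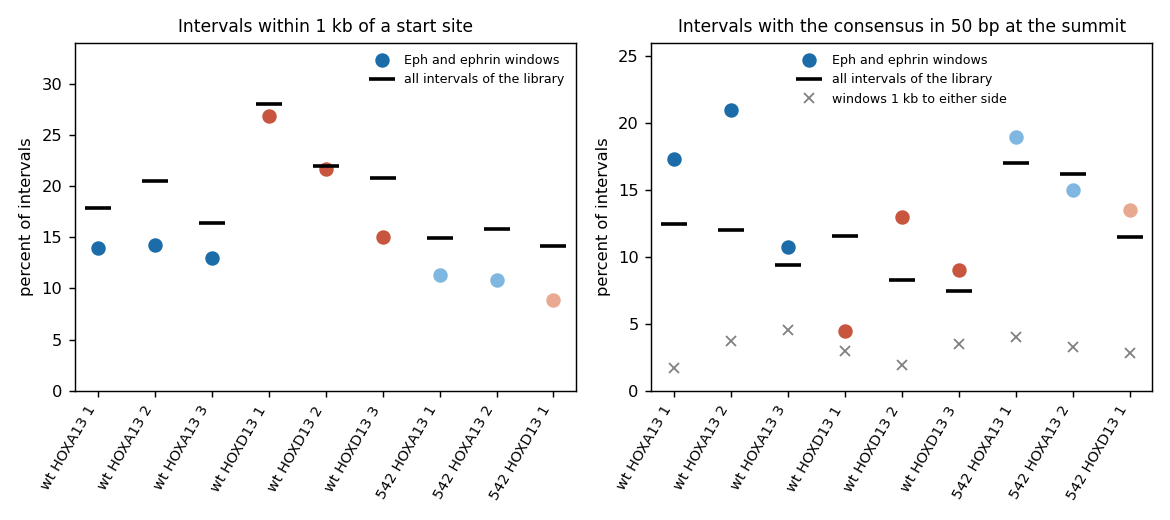
Percent of intervals within 1 kb of a start site (left) and with the consensus in 50 bp at the summit (right), by library. Points are the intervals in the 10 windows, bars all intervals of the same library and crosses (right) the windows 1 kb to either side; the 3 wt HOXA13 points on the left lie between 13.0% and 14.2%, below the wt HOXD13 points.

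The other 12 Eph and ephrin genes were described beside these 10. Their windows held 311 merged sites, some shared with members (35 of the 41 sites around Efna3, 30 of the 39 around Efna4 and 14 of the 33 around Epha8). All of the 12 except Efnb1 had at least 1 site in all 6 wt lists, from 1 around Epha2, Epha10 and Ephb6 to 5 around Efna2. Of the members all except Epha5 had one. The share of all protein-coding windows with such a site was not measured and the windows differ in length. These counts are therefore not set against a background.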

How the data were processed

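HOXA13 and HOXD13 CUT&RUN libraries were processed and deposited by the authors as 1 peak list per library, with no pooling. Per the labels and the study's methods, paired reads were trimmed with cutadapt, mapped with Bowtie on mm10 or on the genome of the mutant line, filtered with SAMtools, passed through Picard, converted with bedtools and called with MACS2 without a control, each read end being extended to 200 bp. The methods say that PCR duplicates were removed, but the listed Picard and MACS2 commands mark and keep them, so read ends may include duplicates. The deposited columns used were the interval, its summit, the fold enrichment of the pileup over local background (a ratio), and −log10 of the p-value and q-value; the deposited score is 10 times −log10 q, cut to a whole number, and entered no result. Weak sites below the caller's threshold are missing, so a site not called may still be bound, and longer lists hold more sites.

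Here rows of 1 interval were reduced to the summit with the highest −log10 p. Pileups recovered from fold enrichment and p came out whole, within 0.01, for at least 99.98% of intervals of every library, and gave the read ends per library. Intervals on chromosomes 1 to 19, X and Y were used, without chromosome 2 beyond the insertion of line 542, and were joined across lists where they overlapped. Genes and start sites were from GENCODE M21 and sequence from GRCm38 (the assembly behind mm10). Groups came from the labels. Shares were compared with two-sided exact permutation tests, with Benjamini-Hochberg adjustment over 4 tests, and heights with limma 3.58.1 (R 4.3.3) with a trend on log2 fold enrichment over all sites called in every library of a comparison; 0.5 was added to counts in consensus ratios. Both were tested on simulated data. Python 3.11.15, scipy 1.17.1 and pysam 0.24.0 were used. The 542 HOXD13 library, a single one with another stage on its label, entered no test.

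The members, lists and tests were chosen with earlier results of these data known. Sites were named by rule: all members' leading site (most lists, then the median within-list percentile of −log10 p), their best start-site site, 3 sites each for Epha3, Epha4 and Epha7, up to 3 sites of each antibody called in all its wt lists and none of the other, and member sites that passed in a height comparison. Alternatives were stricter thresholds, narrower windows, every summit, equal list lengths, other scalings, leaving out each library and a replicate block. Same-numbered wt libraries did not all deviate together, so the numbers were not taken as pairs.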

Additional observations from a re-analysis of the deposited data

Results flagged for a closer look

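The 542 HOXD13 library entered no test, and its intervals around 2 of the 10 genes took a larger share of its list than in any other library. Around Epha4 the share was 0.0338% of its intervals, where the other 8 libraries lay between 0.0131% and 0.0296%. Around Efna5 it was 0.0542%, where the others lay between 0.0437% and 0.0536%. Around Ephb3 its share was instead lower than in any other library, 0.0169% against a lowest of 0.0177%. None of these differences was tested, since the group is 1 library, whose label gives another stage and whose list was the longest.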

How the results depend on the processing

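Which shares were larger was not stable. The log2 difference in member share between HOXA13 and HOXD13 (0.02) was -0.0387 at a fold enrichment of at least 5 and ranged from -0.0908 to 0.0904 when single libraries were left out, and that between wt and 542 HOXA13 (-0.09) was 0.050 at −log10 q of at least 5 and ranged from -0.19 to -0.01 without single libraries. The start-site difference kept its sign in all alternatives tried, from -19.5 (fold enrichment of at least 5) to -4.60 percentage points (without wt HOXD13 replicate 1), with -10.5 the lowest value without single libraries, but the groups overlapped with windows of 50 kb or 20 kb and with every summit counted (permutation p = 0.3, 0.2 and 0.3). The log2 consensus ratio stayed above 0 in all alternatives tried but was lowest, 0.78, with the core of the consensus alone, was 1.34 (permutation p = 0.0938) at a fold enrichment of at least 5, and 1.67 to 2.20 without single libraries, where 5 libraries cannot give a p under 0.0625. Member sites that passed in height numbered 0 to 2 (HOXA13 against HOXD13) and 0 to 13 (wt against 542) without single libraries, the higher count in both cases without wt HOXA13 replicate 3; where a 542 library was left out, the lone one was assumed to vary like the wt libraries. Sites in all 6 wt lists (38) were 4 at a fold enrichment of at least 5, 23 when summits within 200 bp were joined, and 38 to 49 when 1 list was left out.

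With the replicate number as a block (replicate block), the consensus ratio was 1.94 with p = 0.25, the smallest that 3 pairs allow by permutation, and 1 member site passed between the antibodies (565 of 13365 sites in all, against 1) and 14 between wt and 542 (4934 of 27085, against 1). In the wt against 542 fit only wt HOXA13 had a replicate 3, so the block took up that library. The contrast then rested on the other replicates, much as when that library was left out. Deviations of same-numbered wt libraries correlated at -0.02, 0.23 and 0.54, and only replicate 3 of either antibody correlated best with its own number on both sides. Leaving out both wt replicate 3 libraries, chosen after seeing the data, gave a share difference of -0.0810 and a consensus ratio of 2.26 (permutation p = 0.125, the smallest possible). Between the antibodies 4 of 49 member sites then passed, where 1093 of 17965 sites in all did. Of the 4, 2 were higher and 2 lower with HOXA13. Without centring, the median of all sites moved to 0.31 (HOXA13 minus HOXD13) and -0.40 (wt minus 542) and no member site passed.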
